A study of Mus musculus with 8 samples.

Results

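The genes described here are the subunits of the mitochondrial respiratory chain and ATP synthase, cytochrome c, and the factors that assemble the complexes, as measured in iWAT, the subcutaneous white fat of the groin. They were chosen by gene symbol alone: symbols that start with Ndufa, Ndufb, Ndufc, Ndufs, Ndufv, Uqcr or Atp5, and a fixed list of Sdh, Cox and cytochrome genes with Surf1. The rule found 90 of 20972 named genes, read by 122 of the 55681 probes on the array. Of these, 89 were tested among 14730 genes, and Cox17, a copper carrier for complex IV, was above background on 0 of 8 arrays and was not tested.

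Tissue came from 4 Senp2-aKO mice, labelled Senp2flox/flox with Adipoq Cre, a recombinase under the adiponectin promoter, and from 4 control mice labelled Senp2flox/flox alone. Both groups started a diet with 58 kcal% fat at an age of 8 weeks, ate it for 12 weeks and were kept at 22 to 24 °C, so no group on ordinary chow was part of the comparison. Adiponectin is made by adipocytes, so the labelled deletion is one of adipocytes, while the arrays read RNA of the whole fat pad with its vessels, immune cells and precursors. The title of the series names SENP2, a protease that takes SUMO tags off its substrates, as a brake on the browning of white fat.

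The respiratory chain passes electrons from NADH through complex I, or from succinate through complex II, to coenzyme Q, then through complex III and cytochrome c to complex IV, where oxygen is reduced. Complexes I, III and IV pump protons across the inner mitochondrial membrane, and complex V, the ATP synthase, makes ATP from the gradient. In brown and beige adipocytes Ucp1 lets the protons back without making ATP, which turns respiration into heat, and such cells hold many mitochondria. Most subunits are encoded in the nucleus, and the probes described here are of nuclear genes. The subunits encoded in mitochondrial DNA had no probe with a matching name and were not analysed here.

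Promoter sequences of 4 of the 8 genes that rose are shown because the promoters of nuclear respiratory genes are known for binding sites of NRF1, of ETS factors such as GABPA, of YY1 and of estrogen-related receptors (ERR), and because the series title also names C/EBPβ. They are RefSeq windows of 300 bases on GRCm38.p6, with 250 bases before and 50 from the annotated start onward, read 5′ to 3′ on the strand of the gene. Capitals mark a match on either strand to CCGGAAG (ETS), AAGATGGC (YY1), AAGGTCA (ERR), TTGCNNAA (C/EBP) or a longer NRF1 pattern that is not fully palindromic. The Ndufa6 window (chr15:82354242-82354541, minus strand) held an NRF1 match. The Sdhb window (chr4:140961021-140961320, plus strand) held an ETS match. The Uqcrh window (chr4:116075021-116075320, minus strand) held a C/EBP and an ETS match, and the Atp5e window (chr2:174464052-174464351, minus strand) an ETS and an ERR match.
Ndufa6: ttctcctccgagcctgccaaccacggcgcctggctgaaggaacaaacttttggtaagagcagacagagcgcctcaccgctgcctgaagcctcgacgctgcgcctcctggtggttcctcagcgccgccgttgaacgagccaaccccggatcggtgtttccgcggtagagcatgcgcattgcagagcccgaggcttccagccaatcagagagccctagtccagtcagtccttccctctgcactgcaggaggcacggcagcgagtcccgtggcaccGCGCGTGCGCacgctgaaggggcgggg
Sdhb: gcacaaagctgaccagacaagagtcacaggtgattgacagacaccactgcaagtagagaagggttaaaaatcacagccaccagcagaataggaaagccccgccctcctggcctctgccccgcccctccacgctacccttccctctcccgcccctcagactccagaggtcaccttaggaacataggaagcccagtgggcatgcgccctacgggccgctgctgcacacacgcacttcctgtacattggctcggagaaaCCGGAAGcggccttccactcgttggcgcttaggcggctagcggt
Uqcrh: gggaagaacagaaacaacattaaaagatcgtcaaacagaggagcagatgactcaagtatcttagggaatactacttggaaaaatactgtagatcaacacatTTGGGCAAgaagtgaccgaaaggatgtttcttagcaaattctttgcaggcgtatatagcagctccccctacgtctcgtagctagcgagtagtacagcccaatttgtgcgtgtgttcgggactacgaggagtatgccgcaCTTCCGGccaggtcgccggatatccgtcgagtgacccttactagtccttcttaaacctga
Atp5e: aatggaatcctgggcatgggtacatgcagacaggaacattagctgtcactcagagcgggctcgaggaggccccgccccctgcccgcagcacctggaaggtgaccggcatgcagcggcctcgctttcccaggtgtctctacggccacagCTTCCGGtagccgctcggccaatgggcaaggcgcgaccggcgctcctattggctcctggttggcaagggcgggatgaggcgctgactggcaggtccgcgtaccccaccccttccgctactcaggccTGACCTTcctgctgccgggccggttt

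Promoter windows were at hand for 75 of the 89 tested genes, 80 windows in all, and 32851 windows of all genes served as the background. The NRF1 pattern stood in 23.8% of the respiratory windows and in 4.6% of all windows. The ETS pattern stood in 27.5% and 8.86%, the YY1 pattern in 15.0% and 2.75%, and the ERR pattern in 8 of the 80 and in 4.72% of all windows. The C/EBP pattern stood in 12.5% of the respiratory windows and 10.8% of all windows. In the 13 windows of assembly factors the ETS pattern stood in 7, and the ERR pattern in 0, while 8 of the 67 windows of subunits held the ERR pattern. Of the other risen genes, Cox7b, Ndufb10 and Ndufb11 had a window without any of the 5 patterns, and Uqcrb had no window. Each pattern was counted on its own, so an ETS and an ERR match may share bases, and a match describes letters and not binding.

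The 8 arrays had 62976 spots each, with no saturated spot, and their 75th percentile of signal lay between 324 and 382 in Senp2-aKO and between 408 and 446 in control arrays. Values below are log2 signal over the 75th percentile of the same array, and a log2 difference is Senp2-aKO minus control. Senp2 itself had levels of 2.19, 2.12, 2.20 and 2.22 in Senp2-aKO arrays 1 to 4, against 2.46, 2.46, 2.52 and 2.37 in control arrays 1 to 4. The groups did not overlap, and the signal was 82.8% of control (95% interval 73.3% to 93.6%; exact permutation p = 0.0286, two-sided, the smallest that 4 against 4 arrays allow; limma adjusted p = 0.0507). Where the Senp2 probe lies relative to the deleted exons is not given in the sources used here. All 8 arrays shared a slide, with each group in a row of its own, so slide row and genotype cannot be told apart. Senp2-aKO replicate 2 stood apart from the other 3 arrays of its group, and results that rest on it are given with and without it.

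Most respiratory chain genes had slightly positive log2 differences in Senp2-aKO iWAT, and few of them passed the test. In the limma fit, 8 of 89 rose at an adjusted p under 0.05, 0 fell and 81 did not pass, where 7.29% of all 14730 genes rose and 7.12% fell. The share of risen genes was thus near the background. At an unadjusted p under 0.05, 39 were higher and 1 was lower, against 14.7% of all genes higher and 17.6% lower. The median log2 difference of the 89 genes was 0.31, against -0.02 over all genes, and 84 of 89 were above 0 (75 under quantile normalisation), against 47.3% of all genes. Groups did not overlap with Senp2-aKO higher in 18 genes, or 20.2%, against 11.2% of all genes, and with Senp2-aKO lower in 2, against 15.1% of all genes. Their probes mostly gave strong signals: 68 of the 89 were among the 1473 genes with the strongest mean signal, whose members outside the respiratory chain had a median log2 difference of 0.04, with 54.4% above 0. Of those 1405 bright genes 134 rose, as did 8 of the 68 bright respiratory genes. The groups did not overlap with Senp2-aKO higher in 18.4% of those 1405 genes and in 23.5% of the 68. In a whole fat pad, fewer cells of a type and less RNA per cell cannot be told apart, and neither can their opposites.

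**Figure D1:**
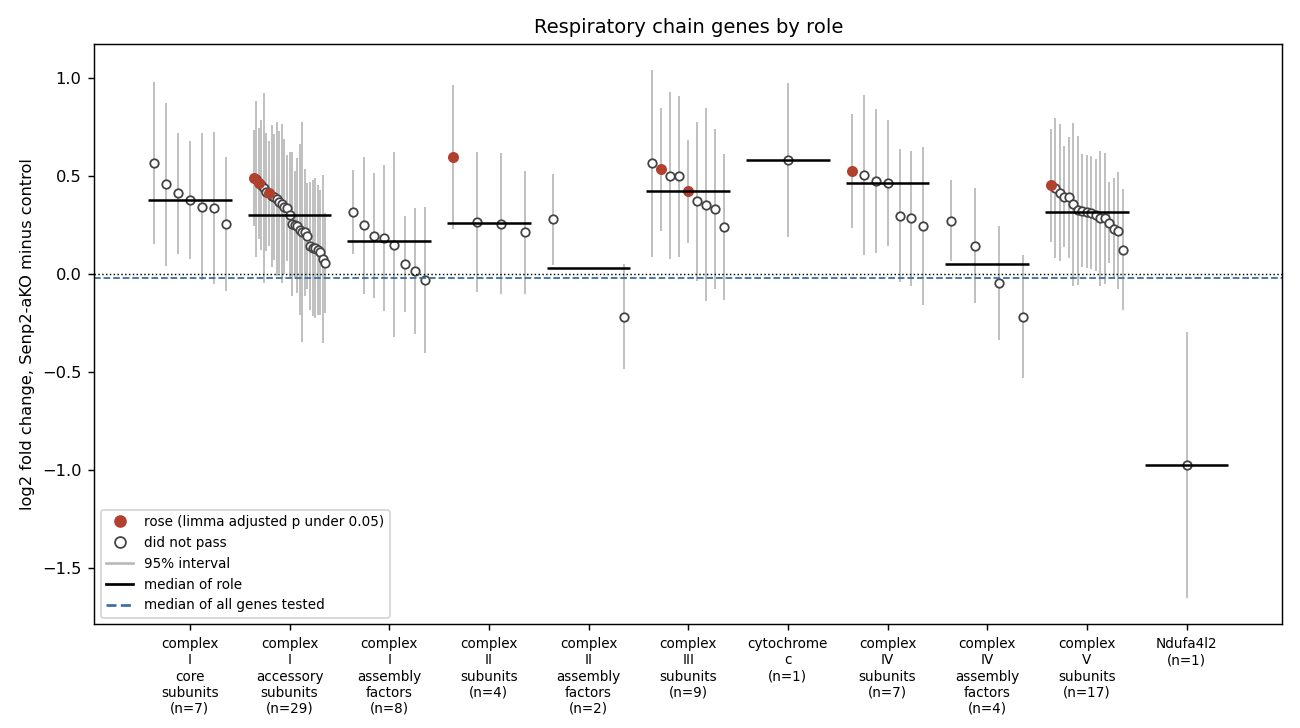
Log2 difference between Senp2-aKO and control (vertical axis) of the 89 tested genes, grouped by role and sorted within each role. Points are genes, filled where they rose at a limma adjusted p under 0.05, grey lines are 95% intervals, black bars are role medians and the dashed line is the median of all 14730 genes. Every subunit lies above 0, from 0.06 to 0.60 (9 are below 0 under quantile normalisation). Assembly factors lie closer to 0 in the normalisation drawn, with a median of 0.15, and Ndufa4l2 lies at -0.97.

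The number of calls varied with the arrays used. Without Senp2-aKO replicate 1 or 4, or without control replicate 1 or 3, 0 respiratory genes rose, where 4.4%, 4.26%, 2.95% and 3.83% of all genes did. Without control replicate 2 or 4, 1 rose (4.64% and 4.7% of all genes). Without Senp2-aKO replicate 3, 4 rose and 1 fell (7.43% and 8.47% of all genes), and without Senp2-aKO replicate 2, 45 rose and 1 fell (9.21% and 9.99% of all genes). Over all 18 alternative settings, Ndufa6 passed in 13, Cox7b in 8, Uqcrb and Ndufb11 in 7, Sdhb, Uqcrh and Atp5e in 6 and Ndufb10 in 5. Their limma adjusted p ranged from 0.00857 to 0.317 for Ndufa6, from 0.00663 to 0.358 for Cox7b, from 0.00686 to 0.345 for Uqcrb and from 0.00996 to 0.356 for Ndufb11. The range was 0.00919 to 0.432 for Sdhb, 0.00857 to 0.369 for Uqcrh, 0.00754 to 0.432 for Atp5e and 0.0109 to 0.416 for Ndufb10. The median log2 difference stayed between 0.24 and 0.42 over these 8 omissions.

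Complex I takes electrons from NADH and is the largest complex. Its core subunits, which carry the flavin and the iron-sulfur clusters, had a median log2 difference of 0.38 over 7 genes, all above 0, and 0 passed the test. Ndufs1, the largest iron-sulfur subunit, had levels of 5.53, 4.95, 5.29 and 5.56 in Senp2-aKO arrays 1 to 4, against 4.79, 5.01, 4.54 and 5.15 in control arrays 1 to 4. Senp2-aKO replicate 2 lay among the controls, so the groups overlapped. The log2 difference was 0.46 ± 0.18 (SE, n = 4 per group; limma adjusted p = 0.124). Ndufs3 had the smallest difference of the core at 0.26 ± 0.15 (SE; limma adjusted p = 0.273).

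The accessory subunits of complex I surround the core and are needed for its assembly or stability. All 29 were above 0 (7 were below 0 under quantile normalisation), with a median of 0.30, and 3 rose. Ndufa6, which lies on the matrix arm, had levels of 5.51, 5.37, 5.22 and 5.49 in Senp2-aKO arrays 1 to 4, against 4.91, 4.99, 4.72 and 5.002 in control arrays 1 to 4. Its 4 Senp2-aKO values all lay above the highest control, and Senp2-aKO replicate 2 was not the lowest of its group. It rose by 0.49 ± 0.11 (SE; limma adjusted p = 0.0222), a 1.41-fold difference with a 95% interval of 1.19 to 1.66.

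Ndufb11, a subunit of the membrane arm, had levels of 7.21, 6.89, 6.98 and 7.27 in Senp2-aKO arrays, against 6.60, 6.77, 6.42 and 6.70 in controls. The groups were apart by a narrow gap, and the log2 difference was 0.46 ± 0.12 (SE; limma adjusted p = 0.0418), or 0.24 under quantile normalisation, which did not pass (limma adjusted p = 0.193). A second kept Ndufb11 probe differed by 0.33 ± 0.12 (SE). With all 30508 kept probes adjusted together, neither probe passed (limma adjusted p of 0.0564 for the reported probe and 0.133 for the second). Ndufb10, also in the membrane arm, had levels of 7.02, 6.68, 6.86 and 7.01 in Senp2-aKO arrays, against 6.41, 6.63, 6.32 and 6.57 in controls, and rose by 0.41 ± 0.12 (SE; limma adjusted p = 0.0497), or by 0.20 without passing under quantile normalisation (limma adjusted p = 0.217). Its lowest Senp2-aKO value, in replicate 2, was just above the highest control. Ndufa12, a subunit joined late to the matrix arm, had a larger difference than Ndufb10 at 0.49 ± 0.17 (SE) but wider spread, and did not pass (limma adjusted p = 0.0976). Ndufa7 had the smallest difference of the accessory subunits at 0.06 ± 0.11 (SE; limma adjusted p = 0.759).

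Complex II is both an enzyme of the tricarboxylic acid cycle and an entry point of electrons. Of its 4 subunits 1 rose. Sdhb, the iron-sulfur subunit, had levels of 7.37, 6.88, 7.15 and 7.43 in Senp2-aKO arrays 1 to 4, against 6.51, 6.77, 6.35 and 6.82 in control arrays 1 to 4. The groups did not overlap, though Senp2-aKO replicate 2 lay within 0.1 of control replicate 4. Sdhb had the largest positive difference of the 89 genes at 0.60 ± 0.16 (SE; limma adjusted p = 0.0425), or 1.51-fold (95% interval 1.17 to 1.95). Under quantile normalisation it was 0.38 and did not pass (limma adjusted p = 0.133). The flavin subunit Sdha and the membrane anchors Sdhc and Sdhd differed by 0.26, 0.27 and 0.21 and did not pass (limma adjusted p from 0.271 to 0.319).

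Complex III hands electrons from coenzyme Q to cytochrome c. Its 9 subunits had a median log2 difference of 0.42, all above 0 (Uqcr11 at -0.01 under quantile normalisation), and 2 rose. Uqcrb, which lies near the coenzyme Q binding site, had levels of 6.79, 6.38, 6.60 and 6.93 in Senp2-aKO arrays, against 6.18, 6.29, 5.95 and 6.15 in controls. All Senp2-aKO values lay above every control, and the difference was 0.53 ± 0.14 (SE; limma adjusted p = 0.0377), or 0.35 without passing under quantile normalisation (limma adjusted p = 0.0812). Its 3 kept probes differed by 0.46 to 0.55, and with every kept probe of the array adjusted together only 1 of the 3 stayed past the threshold. Uqcrh, the hinge protein between cytochrome c1 and cytochrome c, had levels of 7.72, 7.31, 7.47 and 7.62 in Senp2-aKO arrays, against 7.12, 7.22, 6.96 and 7.12 in controls. The groups did not overlap, and it rose by 0.42 ± 0.11 (SE; limma adjusted p = 0.0437), though quantile normalisation gave 0.16, which did not pass (limma adjusted p = 0.369).

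Cyc1, the heme protein cytochrome c1, had the largest difference of complex III at 0.56 ± 0.21 (SE) with overlapping groups, and did not pass (limma adjusted p = 0.103). Uqcr11 had the smallest at 0.24 ± 0.16 (SE; limma adjusted p = 0.34). Cycs, the mobile carrier cytochrome c, had levels of 6.71, 6.29, 6.47 and 7.08 in Senp2-aKO arrays, against 5.97, 6.06, 5.95 and 6.23 in controls. The groups did not overlap, but the test was narrowly missed at a difference of 0.58 ± 0.17 (SE; limma adjusted p = 0.0567). The other 2 Cycs probes gave 0.66 and 1.05, the widest disagreement between probes of any of these genes. Cycs and the risen gene Uqcrh are among 14 of them with a pseudogene or copy found by its symbol. A probe could also read such a copy, but sequences were not compared.

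Complex IV passes electrons to oxygen. Its 7 subunits, among them Ndufa4, which was first assigned to complex I, had a median of 0.47, and 1 rose. Cox7b had levels of 7.01, 6.62, 6.74 and 7.04 in Senp2-aKO arrays, against 6.30, 6.45, 6.14 and 6.42 in controls. Its groups did not overlap, and the difference was 0.53 ± 0.13 (SE; limma adjusted p = 0.031), or 0.31 without passing under quantile normalisation (limma adjusted p = 0.097). Cox5a, one of the first nuclear subunits to join the complex, differed by 0.51 ± 0.18 (SE; limma adjusted p = 0.0927), with Senp2-aKO replicate 2 among the controls. Cox6b1, which joins the 2 copies of the complex, had the smallest difference at 0.25 ± 0.17 (SE; limma adjusted p = 0.364).

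Complex V had 17 measured subunits, all above 0 (Atp5g3 at -0.13 under quantile normalisation) with a median of 0.32, and 1 rose. Atp5e, the epsilon subunit of the central stalk, had levels of 7.93, 7.47, 7.63 and 7.91 in Senp2-aKO arrays, against 7.35, 7.25, 7.16 and 7.36 in controls. The groups did not overlap, and it rose by 0.45 ± 0.13 (SE; limma adjusted p = 0.0475), though quantile normalisation gave 0.19, which did not pass (limma adjusted p = 0.34). Atp5c1, the gamma subunit that turns inside the catalytic head, had a similar difference of 0.44 ± 0.16 (SE) and did not pass (limma adjusted p = 0.0952). The c-ring, which proton flow rotates, is encoded by 3 genes with one mature protein. Atp5g1 and Atp5g2 differed by 0.23 and 0.26, and Atp5g3 by 0.12 ± 0.13 (SE; limma adjusted p = 0.558), the smallest of the complex.

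**Figure D2:**
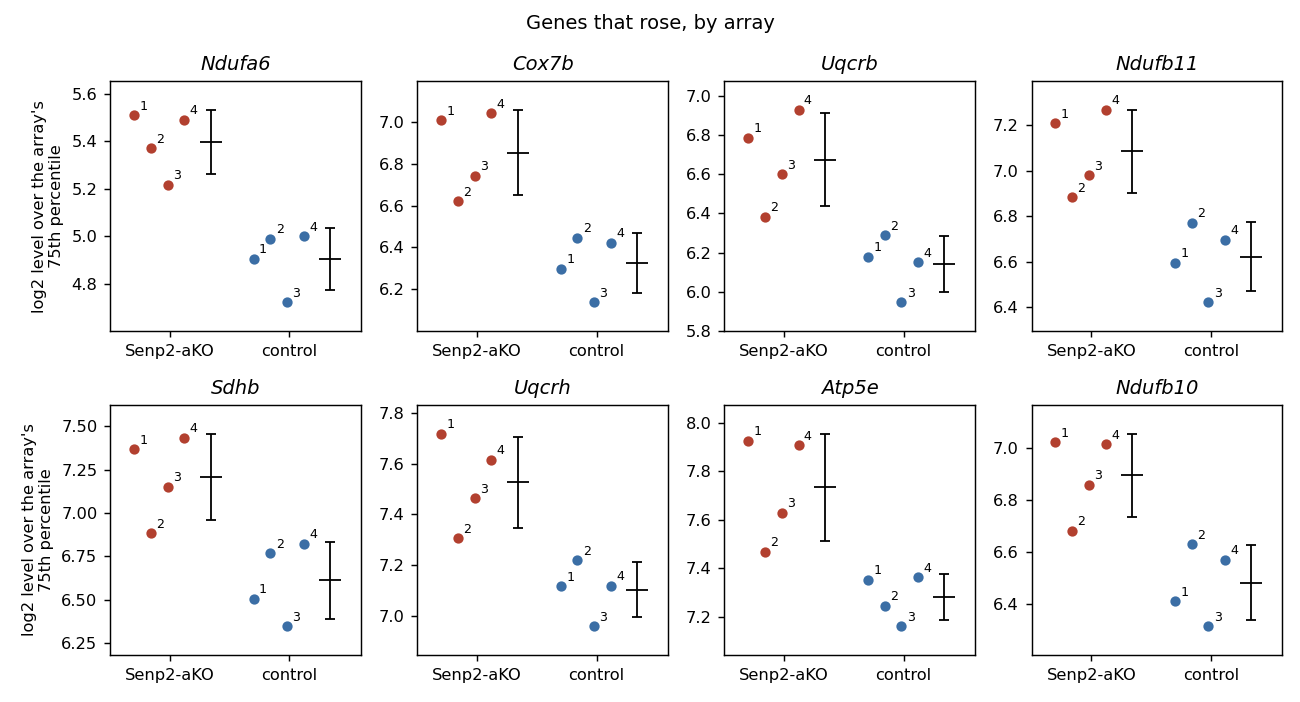
Log2 level over the 75th percentile of each array (vertical axes, with a scale of their own) for the 8 genes that rose, in 4 Senp2-aKO arrays (left) and 4 control arrays (right). Points are arrays with their replicate number, and bars are mean ± SD. In each panel the lowest Senp2-aKO value lies above the highest control value, and replicate 2 is the lowest Senp2-aKO array for every gene but Ndufa6.

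All 74 subunits, with cytochrome c, had differences above 0, with a median of 0.34, whereas under quantile normalisation 9 of them were below 0. The 14 assembly factors, which build the complexes and do not stay in them, had a median of 0.15, with 10 above 0 and 0 past the test. The gap between the subunits and the assembly factors was not tested. Under quantile normalisation the median of all 89 genes was 0.17, against 0.31 as reported. That median mixes subunits and factors, so it does not show whether the gap keeps its size under that normalisation. The factors also gave weaker signals, with mean levels of 1.38 in Senp2-aKO and 1.28 in control arrays, against 6.25 and 5.91 for the subunits. Among the factors of complex I, Ndufaf4 had levels of 2.70, 2.66, 2.43 and 2.62 in Senp2-aKO arrays, against 2.31, 2.37, 2.19 and 2.26 in controls. The groups did not overlap, with a difference of 0.32 ± 0.09 (SE; limma adjusted p = 0.0559). Ndufaf6 differed by 0.25, and Ndufaf2, which is replaced by Ndufa12 late in assembly, by -0.03 (limma adjusted p of 0.292 and 0.921).

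The 2 complex II factors differed with opposite signs, and neither passed. Sdhaf1, which helps to insert iron-sulfur clusters into Sdhb, differed by 0.28 ± 0.10 (SE; limma adjusted p = 0.0979). Sdhaf2, which helps to attach the flavin to Sdha, had levels of 1.37, 0.91, 1.29 and 1.31 in Senp2-aKO arrays, against 1.44, 1.49, 1.39 and 1.42 in controls. All Senp2-aKO values were below the lowest control, most of all replicate 2, and the difference was -0.22 ± 0.12 (SE; limma adjusted p = 0.235). Of the complex IV factors, Cox11, which delivers copper, differed by 0.27 ± 0.09 (SE; limma adjusted p = 0.0784) and Surf1 by 0.15. Cox10 and Cox15, successive enzymes of heme A synthesis, differed by -0.04 and -0.22 (limma adjusted p of 0.84 and 0.306). A second Cox15 probe differed by -0.41 ± 0.11 (SE), with a limma adjusted p of 0.0475 over all 30508 kept probes.

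Ndufa4l2 was matched by its symbol, and is a relative of Ndufa4 that hypoxia induces and that lowers complex I activity, not a regular subunit. It had levels of 1.71, 0.86, 2.38 and 2.12 in Senp2-aKO arrays 1 to 4, against 2.65, 2.80, 2.80 and 2.71 in control arrays 1 to 4. Every Senp2-aKO value was below every control, with Senp2-aKO arrays spread widely. The difference was -0.97 ± 0.30 (SE; limma adjusted p = 0.0621), the largest in size of the 89 genes and below 0 in all 18 alternative settings. It passed the test without Senp2-aKO replicate 2, at -0.67 (limma adjusted p = 0.0294), and without Senp2-aKO replicate 3, at -1.18 (limma adjusted p = 0.03), and its adjusted p ranged from 0.0176 to 0.5 over the alternatives.

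Across the arrays the genes moved together. Set against its own control mean, the median gene stood at 0.48, -0.01, 0.26 and 0.53 in Senp2-aKO arrays 1 to 4, against -0.02, 0.10, -0.17 and 0.09 in control arrays 1 to 4. Senp2-aKO replicate 2 was the lowest of its group in 81 of 89 genes, or 91.0%, against 46.3% of all genes. Control replicate 3 was the lowest control in 84 of 89, against 34.9% of all genes. Senp2-aKO replicates 1, 3 and 4 all lay above every control in 70 of 89 genes, or 78.7%, against 16.1% of all genes. That count sets replicate 2 aside after it was seen to be low in these genes, more often than in all genes. With all 4 Senp2-aKO arrays the shares were 20.2% and 11.2%.

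**Figure D3:**
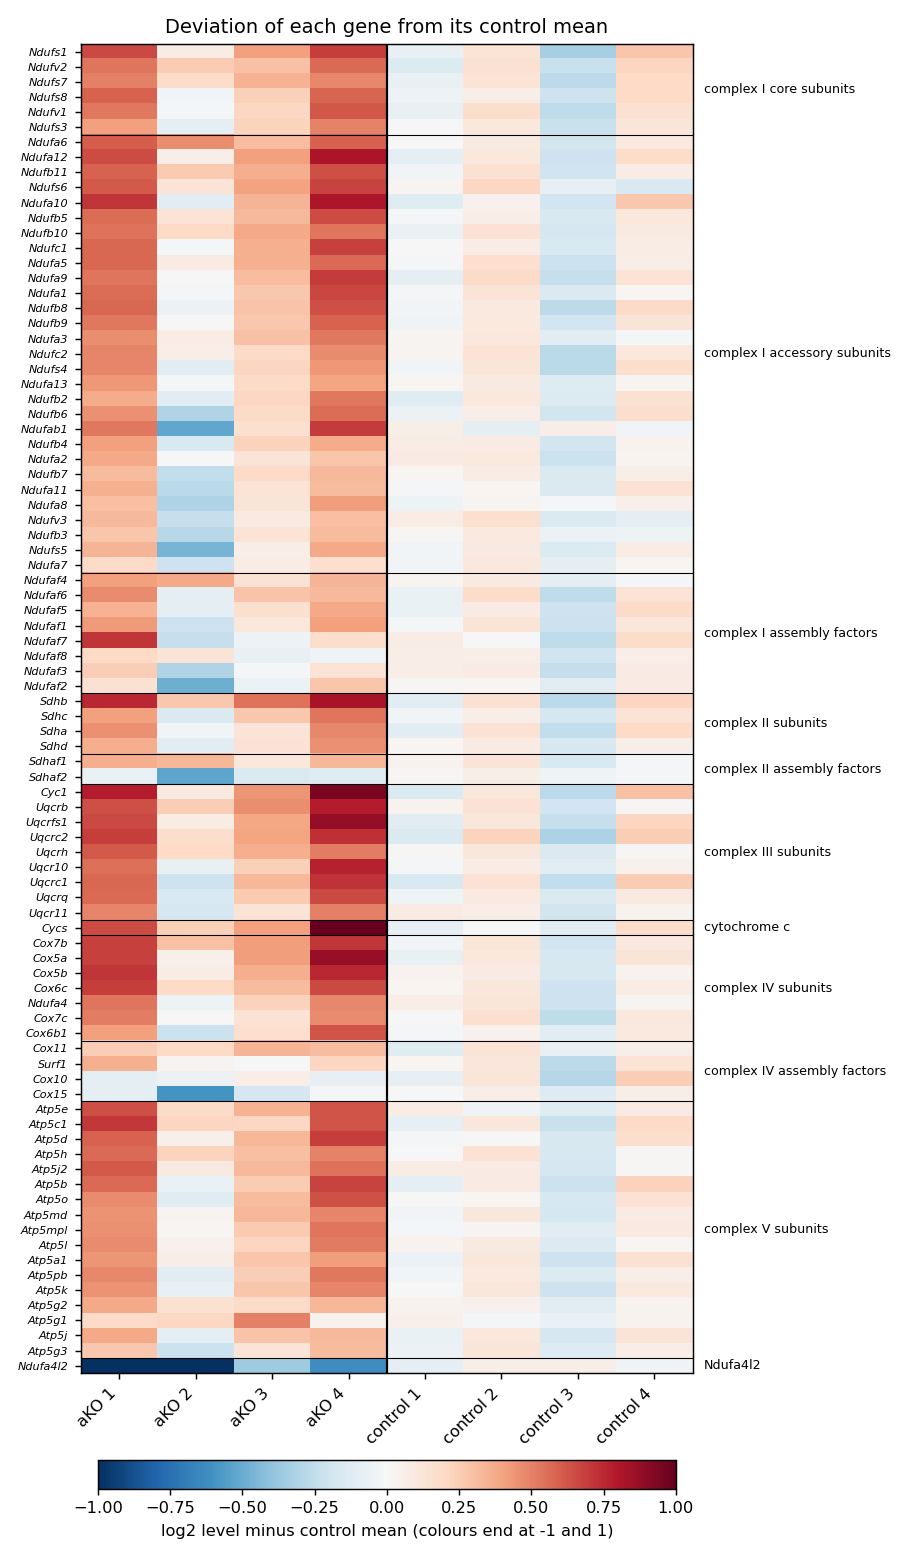
Log2 level of 88 of the 89 genes minus the control mean of each gene (colour, ending at -1 and 1), with genes in rows by role and the 4 Senp2-aKO arrays left of the 4 control arrays. Senp2-aKO arrays 1 and 4 are red in nearly every row, array 3 is paler, array 2 is mixed with a median of -0.01, and control 3 is the bluest control column with a median of -0.17.

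With Senp2-aKO replicate 2 left out, 45 genes rose and 1, Ndufa4l2, fell, where 9.21% of all genes rose and 9.99% fell. The risen genes were then 4 of 7 core and 15 of 29 accessory subunits of complex I, 2 of 4 subunits of complex II, 7 of 9 of complex III, Cycs, 5 of 7 of complex IV and 11 of 17 of complex V. Of the 14 assembly factors 0 passed, and the closest was Cox11 at 0.30 (limma adjusted p = 0.0522). Cyc1 then differed by 0.72 ± 0.17, Cycs by 0.70 ± 0.15 and Cox5a by 0.66 ± 0.13 (SE; limma adjusted p of 0.0312, 0.0259 and 0.02). Over all 18 alternatives the adjusted p ranged from 0.0156 to 0.574 for Cyc1, from 0.00966 to 0.565 for Cycs, from 0.00962 to 0.535 for Cox5a and from 0.0358 to 0.632 for Cox11. All 8 genes that rose with every array also rose without replicate 2. Replicate 2 was the lowest of its group in 81 of 89 genes, against 46.3% of all genes, and leaving out the lowest array raises the mean of its group.

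Replicate 2 also differed in markers of lymphocytes. The mean of 7 B lymphocyte genes was 1.48 in Senp2-aKO replicate 2, between -2.93 and -2.70 in the other Senp2-aKO arrays and between -3.08 and -0.76 in controls. Of these 7 genes 0 passed between the groups. When that B lymphocyte mean entered the fit as a covariate, 49 of the 89 genes rose and 1 fell, where 10.2% of all genes rose and 1688 of 14730 fell. With array weights, which gave replicate 2 a weight of 0.17, 60 rose and 1 fell, where 12.4% of all genes rose and 13.1% fell. 9 T lymphocyte genes likewise averaged 1.72 in replicate 2, against -2.08 to -1.47 in the other Senp2-aKO arrays.

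Skeletal muscle, a tissue rich in mitochondria that underlies the inguinal pad, was read through 18 marker genes. Of these 16 rose, 0 fell, and their mean was between 2.83 and 4.51 in Senp2-aKO arrays, against -2.21 to 1.22 in controls. Ckm, muscle creatine kinase, stood at 3.13 to 4.98 in Senp2-aKO arrays and at -3.92 to 0.65 in controls, and was above background on all arrays. Within Senp2-aKO arrays, muscle markers were lowest in replicate 1 and highest in replicate 3, at 2.83 and 4.51. The respiratory median was lowest in replicate 2. In controls, replicates 3 and 4 had more muscle signal than 1 and 2. Control replicate 3 was the lowest control in 84 of 89 respiratory genes, and control replicates 2 and 4 were the highest in 42 and 43. With the muscle mean as a covariate, the median respiratory difference was 0.53, with 86 of 89 above 0 and 0 past the test, but that fit left only 1 of 14730 genes (0.00679%) past the threshold. The part of muscle in the respiratory result cannot be told apart from genotype by these groups.

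The mean of brown adipocyte markers was higher on every Senp2-aKO array than on any control array. Of 11 measured, 8 rose and 0 fell, with a median log2 difference of 2.14, and their mean was 1.71 to 2.92 in Senp2-aKO arrays, against -0.42 to 0.35 in controls. Ucp1 was at 5.04, 5.36, 4.44 and 6.65 in Senp2-aKO arrays 1 to 4, against -1.11, 0.46, -1.53 and -1.78 in control arrays 1 to 4. Senp2-aKO replicate 2 was not low in Ucp1, nor in the brown mean, at 2.31. The 13 markers of adipocytes in general were above background on all arrays, as the labelled tissue calls for. Their means were 7.53 ± 0.19 in Senp2-aKO and 7.54 ± 0.13 in control arrays (SD, n = 4 each). Their median log2 difference was 0.19, with 10 of 13 above 0 and 3 below. Among them Pnpla2, a lipase, rose and Lep, the hormone leptin, fell, with a log2 difference of -1.85. The part of these cell types in the respiratory result was not tested. Of the other marker lists, 3 of 7 adipose progenitor genes rose and 1 fell, 3 of 4 mammary epithelial genes and 1 of 8 macrophage genes rose, and 0 of 7 endothelial and 0 of 9 T lymphocyte genes passed.

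**Figure D4:**
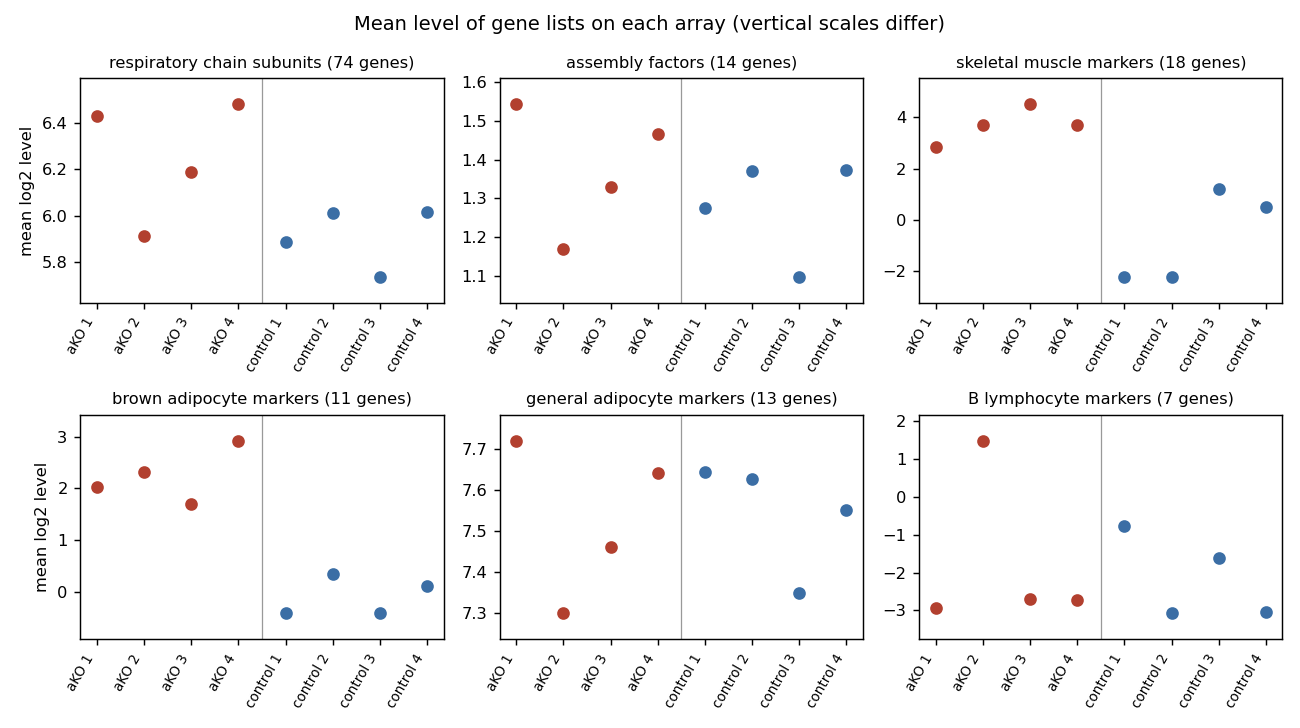
Mean log2 level over the genes of a list (vertical axes, with scales that differ) on each of the 4 Senp2-aKO arrays (red) and 4 control arrays (blue). Respiratory subunits are lowest in Senp2-aKO 2 at 5.91 within their group, muscle markers are lowest in Senp2-aKO 1 at 2.83, brown adipocyte markers are higher on each Senp2-aKO array than on any control, and B lymphocyte markers are high at 1.48 in Senp2-aKO 2.

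Genes that work next to the respiratory chain are given by list, where 7.29% of all 14730 genes rose and 7.12% fell. Of 31 further assembly factors 0 passed, with a median log2 difference of 0.09. Of 17 genes of the tricarboxylic acid cycle, which feeds NADH and succinate to the chain, 0 passed, although 16 were above 0 with a median of 0.43. Of 13 genes of coenzyme Q synthesis and handling 2 rose, Coq8a by 0.62 ± 0.16 and Coq10a by 0.85 ± 0.15 (SE; limma adjusted p of 0.0381 and 0.0123). Coq10a, which binds coenzyme Q, had levels of 1.70, 1.53, 1.70 and 2.05 in Senp2-aKO arrays, against 0.85, 1.04, 0.62 and 1.08 in controls. Of 8 other enzymes that pass electrons to coenzyme Q 1 rose, choline dehydrogenase (Chdh), by 1.10 ± 0.29 (SE; limma adjusted p = 0.0429).

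Of 4 supercomplex factors and inhibitors 1 fell. Atpif1, the inhibitor that binds the ATP synthase when it would run in reverse, had levels of 5.23, 5.21, 5.27 and 5.23 in Senp2-aKO arrays 1 to 4, against 5.75, 5.65, 5.80 and 5.62 in control arrays 1 to 4. The groups were far apart for their spread, Senp2-aKO replicate 2 was close to the others, and the difference was -0.47 ± 0.08 (SE; limma adjusted p = 0.0115). The 17 subunits of the enzyme it binds were all above 0, Atp5g3 excepted under quantile normalisation.

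Of 21 regulators of mitochondrial gene expression 3 rose. Ppargc1a, the coactivator PGC-1α that is known to drive mitochondrial biogenesis and browning and that is also in the brown list, had levels of 0.85, 1.75, 0.66 and 1.69 in Senp2-aKO arrays, against -0.14, 0.18, -0.72 and -0.41 in controls. It rose by 1.51 ± 0.30 (SE; limma adjusted p = 0.0178) and was highest in Senp2-aKO replicate 2, where respiratory genes were lowest. Esrrb, an estrogen-related receptor, rose by 0.997 ± 0.27 and Mterf3, which acts on mitochondrial ribosome assembly, by 0.40 ± 0.09 (SE; limma adjusted p of 0.0462 and 0.0221). The mean levels of Esrrb were low, at -2.83 in Senp2-aKO and -3.83 in control arrays. Esrrg, of the same receptor family, differed by -0.82 and Ppargc1b by -0.20, and neither passed (limma adjusted p of 0.0664 and 0.679). Tfam, which packs and transcribes mitochondrial DNA, differed by 0.32, Nrf1 by 0.27, Gabpa by -0.03 and Esrra by -0.20, and these 4 did not pass (limma adjusted p of 0.0952, 0.173, 0.88 and 0.264).

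**Figure D5:**
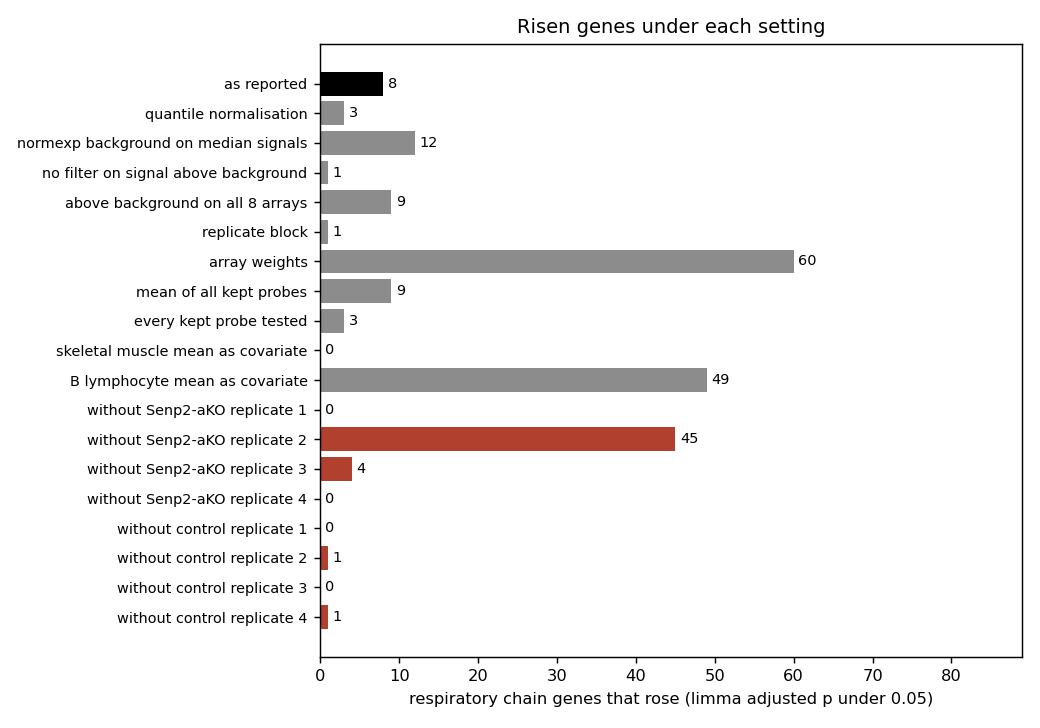
Number of the 89 respiratory genes that rose at a limma adjusted p under 0.05 (horizontal axis) as reported (black), under each other setting (grey) and with each array left out (red). The count is 8 as reported, 0 when Senp2-aKO 1 or 4 or control 1 or 3 is left out, 45 without Senp2-aKO 2, and 60 with array weights.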

How the data were processed

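Total RNA of iWAT, 0.5 µg per sample, was labelled with Cy3 and read on Agilent arrays with 1 colour channel. Images were read by Agilent Feature Extraction 11.5.1, per the submitters' processing notes. The values used, all deposited, are intensity: a processed signal, already background-corrected per the file headers, and for an alternative the median signal and its local background. None was scaled between arrays. Spot flags (above background, saturated, outlier) were deposited as 0 or 1 (unit other). A matrix of normalised values was left out, since its 8 sample columns matched no label.

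After 3671 control spots were removed, log2 processed signals were centred on the 75th percentile of each array, and replicate spots were averaged, outlier spots excepted. Probes well above background on at least 4 of 8 arrays were kept (30508 of 55681). They were named by accession with RefSeq's GRCm38.p6 annotation, and each gene was represented by its brightest probe. Groups were compared in limma 3.58.1 (R 4.3.3, with version 1.17.8 of data.table), with Benjamini-Hochberg adjustment over 14730 genes and a threshold of 0.05. The limma step was tested on simulated gene levels with independent noise. The earlier steps, and shifts shared by the genes of an array, were not part of that test. Nothing in the labels says more of the replicates than their number, so p-values measure the spread between these samples, and precision is limited by the 4 arrays per group.

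The genes described, the pathway lists and the marker lists were chosen with earlier results of these data known. Named were Senp2, every respiratory gene that passed, the 2 highest and the 1 lowest of each role (all genes in roles of up to 3), genes below 0, genes whose probes differ in sign or call, and, of each pathway list, up to 4 genes that passed. The values of 1 gene that this rule names are not reported here. Others named beside them (Sdha, the remaining c-ring genes, Ndufaf8, Ckm, Ucp1, Lep, Pnpla2, Tfam, Nrf1, Gabpa, Esrra, Esrrg and Ppargc1b) were picked after their values were seen. No label pairs the samples by replicate number. Deviations from the group means correlated at -0.02, -0.08, 0.14 and 0.11 between same-numbered arrays. Arrays of different numbers were not compared in this way, so a pairing was not tested. Normalisation, background correction, the filter, probe choice, array weights, a replicate block, marker covariates and each array were varied.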

Additional observations from a re-analysis of the deposited data

Results flagged for a closer look

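A check of 126 groups of 4 arrays covered part of these genes, Senp2 and list means. In 5 of them an array stood far from the other 3 for the range of its group (Dixon's criterion at 95%), where chance gives about 1 in 20. Genes outside this check can hold such arrays too: Ndufaf8 was 0.162 in control replicate 3, against 0.43 to 0.435 in the other controls. Sdhaf1 was 2.74 in Senp2-aKO replicate 3, against 2.969 to 2.998 in the other 3 Senp2-aKO arrays. Sdhaf2 was 0.907 in Senp2-aKO replicate 2, against 1.29 to 1.37 in the others. The mean of B lymphocyte markers was 1.48 in Senp2-aKO replicate 2, against -2.93 to -2.70 in the others, and that of T lymphocyte markers was 1.72 (1.725 before rounding), against -2.08 to -1.47. The mean of mammary epithelial markers was -2.81 (-2.805 before rounding) in Senp2-aKO replicate 4, against -1.53 to -1.29 in the others.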

How the results depend on the processing

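The direction of the median log2 difference of the respiratory genes was kept in all 18 alternatives, from 0.17 under quantile normalisation to 0.53 with the skeletal muscle mean as a covariate (reported: 0.31). The number of genes that rose, reported as 8, moved far more: it was 3 under quantile normalisation, 1 without a filter on signal above background, 3 with every kept probe tested, 0 with the muscle covariate, 49 with the B lymphocyte covariate and 60 with array weights. It was 12 with normexp, 9 with the stricter filter and 9 with the mean of all probes, which kept 8, 8 and 7 of the 8 genes. The replicate block left 1 risen gene, Ndufa6. Since no label pairs the samples by replicate number, the block was not used further. Leaving out single arrays gave between 0 and 45 risen genes and between 0 and 1 fallen. The count of fallen genes, 0 as reported, was 1 (Ndufa4l2) with normexp, array weights and the B lymphocyte covariate. The causes of these changes were not tested. Adjusted p-values of the 8 risen genes lay between 0.0222 and 0.0497, close to the threshold. With 4 arrays per group, and slide row tied to genotype, smaller differences could not be shown.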
